A study of Mus musculus with 6 samples.

Results

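The translation initiation factor genes examined here are the autosomal mouse genes whose symbol begins with Eif1, Eif2, Eif3, Eif4, Eif5 or Eif6. The annotation holds 62 such genes, of which 52 are protein-coding and 10 are processed pseudogenes. Of these, 51 were listed in at least 1 library, out of 15939 genes listed in the series. The unlisted genes were the 10 pseudogenes and Eif4e1b, an oocyte form of the cap-binding protein. The listed members held 329 distinct events out of 128790 in the series.

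RNA was sequenced from the nucleus accumbens, a striatal reward region, of C57BL/6N mice. The animals had been through conditioned place preference training, in which a drug injection is paired with one side of a chamber. The 3 morphine libraries (replicates 4, 5 and 6) came from mice injected with morphine, and the 3 saline libraries (replicates 1, 2 and 3) from mice injected with saline. Each group comprised 6 mice according to the design text. Which mice went into which sample is not stated in the labels, so p-values measure the spread between samples. The labels give neither age nor sex.

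What was measured is a catalogue, per library, of events in assembled transcripts. An event is a first exon, a last exon, a skipped exon, a retained intron or an exon with an alternative end, and the measure used throughout is how many distinct events a library lists for a gene. It is a number of listed events, neither a number of transcript forms nor an expression level. In each library that listed a member, the member held at least 1 first exon and 1 last exon. The lowest number for a listed member was thus 2. The read depth behind each catalogue is unknown, so an event that a library does not list is not shown to be absent there.

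Initiation begins when eIF2 brings the initiator tRNA to the small ribosomal subunit, with eIF1, eIF1A and the large eIF3 complex helping it to scan for a start codon. The mRNA is brought in by eIF4F, in which eIF4E binds the cap, eIF4A unwinds RNA and eIF4G holds them together, while 4E-binding proteins compete with eIF4G for eIF4E under the control of mTOR. In neurons these factors are known as control points of the protein synthesis that lasting synaptic change needs, and kinases that phosphorylate eIF2 alpha slow initiation under stress.

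The catalogues were of similar size, with 56416 to 57981 events per morphine library and 54641 to 58007 per saline library. All 12 medium spiny neuron markers, which mark the main neurons of this region, were listed in all 6 libraries. So were all 4 neuron, all 5 astrocyte, all 5 oligodendrocyte and all 4 microglia markers. Of 3 endothelium markers, Cldn5 was at 0 in every library. The medium spiny neuron marker Rgs9 had 5, 6 and 6 events in the morphine libraries, against 4 in each saline library. The neuron marker Syt1 had 4 in each morphine library, against 5 in each saline library. The other 11 medium spiny neuron markers and 3 neuron markers overlapped between the groups. Summed events of 3 ependyma markers were 12, 13 and 15 in the morphine libraries, against 16, 23 and 18 in the saline libraries. Of these, Foxj1 and Dnah11 had 2 events in every library. Ccdc39 alone differed, at 8, 9 and 11 in the morphine libraries and 12, 19 and 14 in the saline libraries. Of 3 choroid plexus markers, Ttr was listed with 2 events in every library, Tmem72 was listed at 0 in the 3 morphine libraries and with 2 events in each saline library, and Folr1 was at 0 in 4 libraries. No morphine library exceeded a saline library in the summed events of the ependyma or the choroid plexus list. The part of any marker in the results below was not tested.

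Sequences are given first for the fully coding cassette exons that at least 5 libraries listed both in and out of the messenger RNA, and for the alternative exon ends in all 6, because the splicing results below turn on them. Capitals mark the exon or exon stretch that is in 1 form and missing from the other, and the 15 lower-case bases on each side are the neighbouring sequence of the spliced transcript. All are read 5′ to 3′ from GENCODE M21 transcripts on GRCm38, and positions refer to the capitals. The eIF4G scaffold genes come first, with the 21-base exon of Eif4g1 at chr16:20674786-20674806 (plus strand), the 21-base exon of Eif4g3 at chr4:138095909-138095929 (plus strand) and the 33-base exon of Eif4g3 at chr4:138087533-138087565 (plus strand).
Eif4g1 21-base exon: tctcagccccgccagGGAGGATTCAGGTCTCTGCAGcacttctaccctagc
Eif4g3 21-base exon: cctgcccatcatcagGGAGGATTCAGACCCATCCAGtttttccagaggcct
Eif4g3 33-base exon: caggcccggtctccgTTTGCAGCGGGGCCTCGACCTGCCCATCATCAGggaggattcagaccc
The 21-base exons of these paralogues had the same base at 16 of 21 positions. Exons this short are called microexons. Inclusion of eIF4G microexons is known as a neuronal trait promoted by the splicing factor Srrm4.

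The other coding cassette exons listed in at least 5 libraries included a 129-base exon of Eif4g3 at chr4:138057949-138058077 (plus strand) and a 60-base exon of Eif4h, which stimulates the helicase, at chr5:134624441-134624500 (minus strand). They also included a 140-base exon of the helicase gene Eif4a2 at chr16:23109120-23109259 (plus strand) and a 72-base exon of Eif4enif1, the eIF4E transporter, at chr11:3233988-3234059 (plus strand).
Eif4g3 129-base exon: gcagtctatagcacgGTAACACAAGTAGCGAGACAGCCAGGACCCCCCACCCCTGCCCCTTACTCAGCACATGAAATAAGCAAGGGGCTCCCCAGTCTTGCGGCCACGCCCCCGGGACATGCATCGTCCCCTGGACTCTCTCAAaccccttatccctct
Eif4h 60-base exon: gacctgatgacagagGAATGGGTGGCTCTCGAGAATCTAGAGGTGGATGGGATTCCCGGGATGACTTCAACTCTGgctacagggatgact
Eif4a2 140-base exon: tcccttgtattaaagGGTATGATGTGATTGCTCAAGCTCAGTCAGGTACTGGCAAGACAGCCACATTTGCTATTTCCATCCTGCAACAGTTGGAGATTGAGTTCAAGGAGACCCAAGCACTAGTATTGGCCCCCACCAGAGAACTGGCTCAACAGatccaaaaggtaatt
Eif4enif1 72-base exon: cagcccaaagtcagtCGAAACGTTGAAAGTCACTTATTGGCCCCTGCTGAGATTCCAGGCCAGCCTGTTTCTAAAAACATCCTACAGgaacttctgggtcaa
Of these 4, the 140-base exon is the one whose length is not a multiple of 3, so leaving it out shifts the reading frame.

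Alternative exon ends in all 6 libraries came from the eIF4G genes alone among the members. They were a 30-base stretch of Eif4g1 at chr16:20675730-20675759, a 21-base stretch of Eif4g1 at chr16:20684408-20684428 and a 57-base stretch of Eif4g3 at chr4:138180490-138180546, all on the plus strand. Each lies at the 5′ end of its exon, where the upstream splice acceptor can be used or passed over.
Eif4g1 30-base stretch: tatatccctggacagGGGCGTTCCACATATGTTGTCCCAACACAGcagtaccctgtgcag
Eif4g1 21-base stretch: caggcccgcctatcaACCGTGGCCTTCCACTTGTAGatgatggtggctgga
Eif4g3 57-base stretch: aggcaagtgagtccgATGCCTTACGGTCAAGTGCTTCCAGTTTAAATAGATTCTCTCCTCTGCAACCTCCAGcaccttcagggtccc
All 3 stretches are coding and a multiple of 3 long.

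Across the members, the morphine and saline catalogues held nearly the same numbers of events. Summed over the 51 listed members, there were 175, 178 and 185 events in the morphine libraries and 188, 170 and 163 in the saline libraries. The means were 179 ± 5.13 in morphine and 174 ± 12.9 in saline (SD, n = 3 each), a ratio of 1.03, and the groups overlapped. Of 50 members with a mean of at least 0.5 events, 13 had a higher mean in morphine, 15 a lower mean and 22 the same mean. The median log2 ratio, computed on log2(events + 0.5), was 0 for the members and 0 for all 15040 genes tested.

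**Figure D1:**
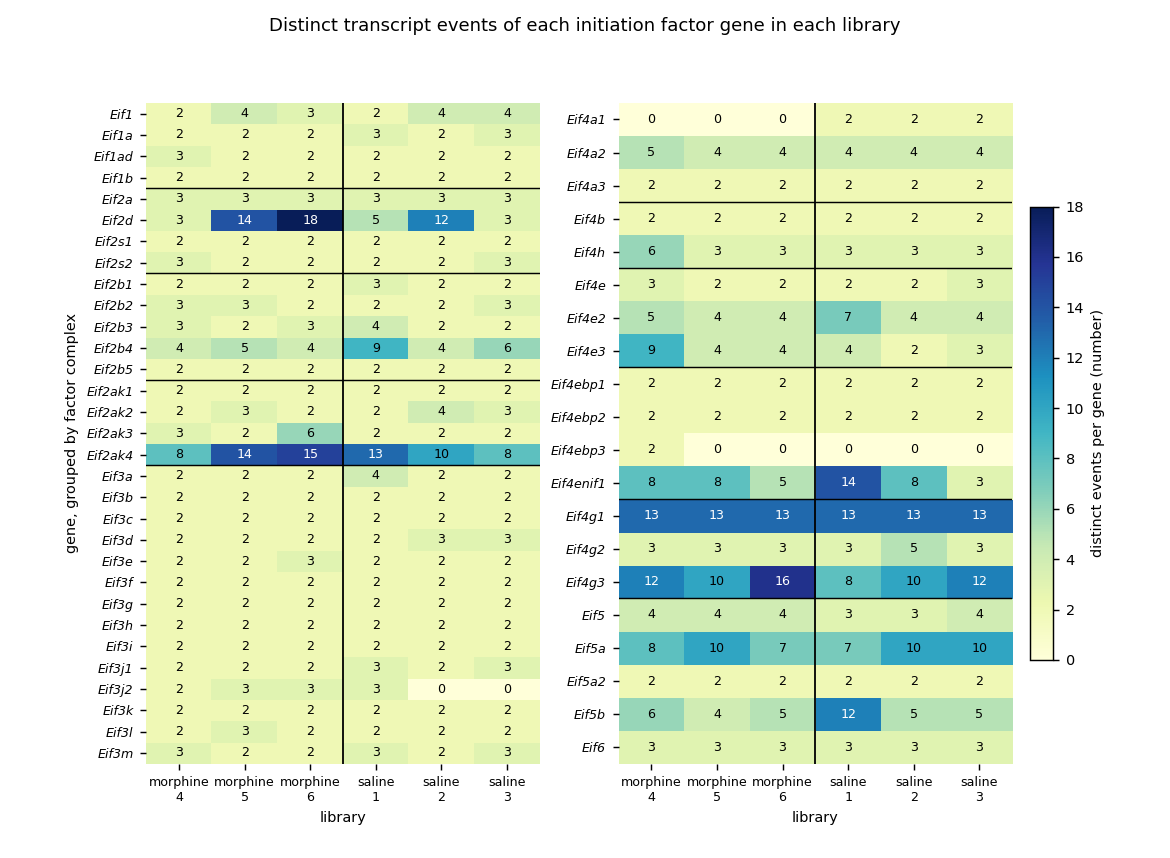
Distinct events (number, color and printed value) of each of the 51 listed genes in each library, with morphine libraries left of the line and saline libraries right of it. Black lines separate the factor complexes. Of the 14 eIF3 genes, 7 are at 2 in every library, while Eif2d runs between 3 and 18 within the morphine libraries, and Eif4a1 is at 0 in the morphine libraries and 2 in the saline libraries.

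Groups did not overlap for 1 of the 50 tested members, the helicase gene Eif4a1. Non-overlap means that the lowest library of 1 group exceeded the highest of the other, and it held for 3.07% of all tested genes, 1.64% with morphine above and 1.43% with saline above. At 1 member in 50, the share of members was not above that of all genes. Eif4a1 (ENSMUSG00000059796, chr11:69666936-69672423, minus strand) encodes the main eIF4A, the RNA helicase of eIF4F. It was listed at 0 in all 3 morphine libraries and with 2 events in each of the 3 saline libraries. The exact two-sided permutation p was 0.1, the smallest that 3 against 3 allows. Limma gave an adjusted p of 6.05e-06, but the event numbers were identical within each group, as they were for 87 of the 96 genes that limma called over the whole series (0.638% of the genes tested). The choroid plexus marker Tmem72 had the same numbers as Eif4a1 in every library, and whether the markers bear on it was not tested.

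The end of the Eif4a1 transcript was listed under more than 1 gene ID. In the saline libraries the ID held a last exon with its splice site at 69667617, together with a first exon ending at 69672279 in replicates 1 and 3 and at 69669078 in replicate 2. The same last exon was listed under the ID of Senp3, the neighbouring SUMO protease gene, in morphine replicates 4, 5 and 6 and in saline replicate 2. An assembled transcript with this end was thus listed in all 6 libraries. A retained intron at chr11:69670976-69672279, at the start of Eif4a1, was also listed under Senp3 in morphine replicate 4 and saline replicate 2. Counted by gene ID, the last exon at 69667617 was the single member event listed in all 3 libraries of 1 group and none of the other. It made 0.304% of the 329 member events, against 0.665% of all events in the series, or 0.345% for saline alone. Since Senp3 held the same exon in all 3 morphine libraries, this split was between gene IDs.

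The other helicase genes showed no such split. Eif4a2, the eIF4A enriched in brain, had 5, 4 and 4 events in the morphine libraries, against 4, 4 and 4 in the saline libraries (log2 ratio 0.10, SE 0.092, exact permutation p = 1). Its 140-base exon was listed both in and out in all 6 libraries, and its last exons at 23112351 and 23113167 were each in all 6. The extra event in morphine replicate 4 was a 107-base cassette exon that begins at 23112351, the splice site of one of those last exons. Eif4a3, the helicase of the exon junction complex, had 2 events in every library. Eif4h had 6, 3 and 3 events in the morphine libraries, against 3, 3 and 3 in the saline libraries, and its 60-base exon was listed in and out in all 6. Morphine replicate 4 alone was high for Eif4h, with a retained intron and an alternative end that the other libraries did not list. Some Eif4h ends were listed on the strand opposite to the gene, so its first and last exons are uncertain. On its own strand and inside it, Eif4h had 5, 2 and 2 events in the morphine libraries, against 3, 3 and 1 in the saline libraries. The other helper gene, Eif4b, had 2 events in every library.

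The eIF4G scaffold genes carried the richest catalogues among the factors of eIF4F. Eif4g1 had 13 events in every one of the 6 libraries, with the same 4 first exons, 1 last exon, 4 skipping events and 4 alternative exon end entries throughout. Eif4g3 had 12, 10 and 16 events in the morphine libraries, against 8, 10 and 12 in the saline libraries, and the groups overlapped (log2 ratio 0.32, SE 0.24, exact permutation p = 0.5). Eif4g2, which lacks the eIF4E-binding region of its paralogues, had 3, 3 and 3 events in the morphine libraries and 3, 5 and 3 in the saline libraries.

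Skipping, retention, first exons and last exons of Eif4g3 all varied between libraries. The skipping entries that varied involved alternative exons of 114, 33 and 21 bases that lie next to each other. The skip of the 33-base exon with splicing to the 21-base exon was listed in all 6 libraries. The joint skip of the 33- and 21-base exons was listed in 5, the exception being morphine replicate 5. The 114-base exon was listed as skipped in morphine replicates 4, 5 and 6 and saline replicate 2. Skipping entries summed to 7, 3 and 10 in the morphine libraries, against 4, 6 and 4 in the saline libraries, so the lowest and the highest library were both morphine libraries. Retention entries of Eif4g3 numbered 0, 3 and 1 in the morphine libraries, against 0, 0 and 2 in the saline libraries.

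Skipping was listed for 13 members, through 23 distinct single cassette exons. All 191 skipping and retention rows of the members had a partner row without the exon or intron in the same library. Skipping and retention are entered as such pairs, so this describes the entries and is no separate result. Of the 23 exons, every library listed 9, and 5 were listed in only 1 library each. The exon was coding over its whole length for 14 of them, and 10 of these 14 had a length that is a multiple of 3. The 9 exons in all 6 libraries belonged to Eif4a2, Eif4e2, Eif4g1, Eif4g3, Eif4h and Eif5a. Summed skipping events of the members were 24, 20 and 24 in the morphine libraries and 16, 21 and 16 in the saline libraries, and the groups overlapped, at 20 in morphine replicate 5 and 21 in saline replicate 2. The means were 22.7 ± 2.31 in morphine and 17.7 ± 2.89 in saline (SD, n = 3 each). Over all genes, skipping events numbered 5912 to 5948 in the morphine libraries and 5948 to 6674 in the saline libraries.

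**Figure D2:**
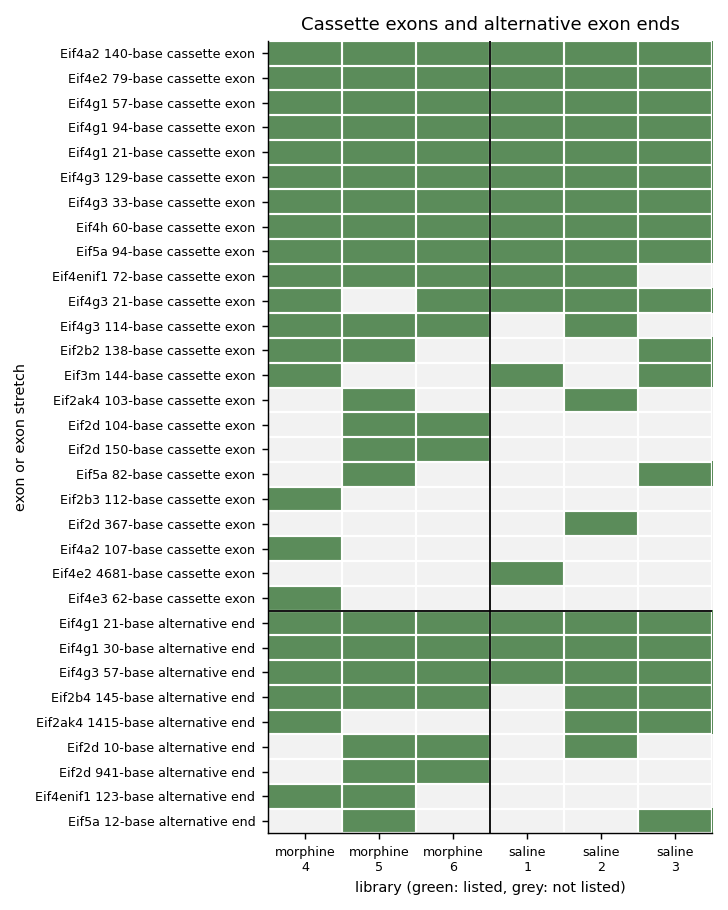
Cassette exons (above the line) and alternative exon ends seen in at least 2 libraries (below it), named by gene and length in bases, with green for a library that lists the form and grey for one that does not. Morphine libraries are left and saline libraries right. The 9 exons at the top and the Eif4g1 and Eif4g3 ends are green in all 6 columns, and no row is green in all columns of 1 group and none of the other.

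The cap-binding genes overlapped between the groups. Eif4e, the cap-binding protein itself, had 3, 2 and 2 events in the morphine libraries, against 2, 2 and 3 in the saline libraries. The last exon listed for Eif4e lay outside the gene in morphine replicate 4 and saline replicates 2 and 3. On its strand and inside it, Eif4e had 2, 2 and 2 events in the morphine libraries, against 2, 1 and 2 in the saline libraries. Eif4e2, a cap-binding homologue linked to repression of translation, had 5, 4 and 4 events in the morphine libraries and 7, 4 and 4 in the saline libraries, and its 79-base cassette exon was listed in all 6. Eif4e3 had 9, 4 and 4 events in the morphine libraries, against 4, 2 and 3 in the saline libraries, so the groups met at 4. Its log2 ratio was 0.76 (SE 0.41) and its exact two-sided permutation p was 0.3. Most of these events lay outside the annotated gene. Counting only those on its strand and inside it, Eif4e3 had 2, 1 and 2 events in the morphine libraries, against 1, 2 and 1 in the saline libraries, a log2 ratio of 0.25. None of the 7 first exon sites of Eif4e3 was in all 6 libraries, and some sites inside Eif4e3 were listed under Foxp1 and Gm20696.

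The 4E-binding protein genes Eif4ebp1 and Eif4ebp2, whose products are released from eIF4E when mTOR phosphorylates them, had 2 events in every library. The first exon of Eif4ebp2, the form most abundant in brain, was listed with its splice site at 61451365 in morphine replicates 4 and 6, and at 61452402 in morphine replicate 5 and all 3 saline replicates. Eif4ebp3 was listed with 2 events in morphine replicate 4 and at 0 in the other 5 libraries. Its last exon was listed under the neighbouring Ankhd1 in morphine replicates 4 and 6 and in all 3 saline replicates. Eif4enif1, which carries eIF4E into the nucleus and to processing bodies, had 8, 8 and 5 events in the morphine libraries, against 14, 8 and 3 in the saline libraries. Both extremes of Eif4enif1 were saline libraries (log2 ratio -0.04, SE 0.60, exact permutation p = 0.9), and its 72-base exon was listed in every library but saline replicate 3.

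Genes of the eIF2 step fell into constant and scattered ones. Eif2s1, which encodes eIF2 alpha, the subunit that stress kinases phosphorylate, had 2 events in every library. Eif2d, a factor that delivers tRNA independently of GTP, had 3, 14 and 18 events in the morphine libraries, against 5, 12 and 3 in the saline libraries. The morphine mean of Eif2d was 11.7 ± 7.77 and the saline mean 6.67 ± 4.73 (SD, n = 3 each), and both groups held a library at 3 (exact permutation p = 0.5). Its high libraries, morphine replicates 5 and 6 and saline replicate 2, were those that listed skipped exons or alternative exon ends of the gene. Of 2 neighbouring cassette exons of Eif2d, the 104-base exon was listed as skipped alone in morphine replicates 5 and 6. A skip of the 150-base exon that kept the 104-base exon was listed in morphine replicate 6 alone. Both exons were listed as skipped together in morphine replicates 5 and 6 and in saline replicate 2.

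Among the eIF2 alpha kinases, the amino acid sensor Eif2ak4 (GCN2) had 8, 14 and 15 events in the morphine libraries, against 13, 10 and 8 in the saline libraries. Both groups of Eif2ak4 ran from 8 upward and overlapped (log2 ratio 0.22, SE 0.32, exact permutation p = 0.6). It had 16 first exon sites, of which 3 were listed in every library and 11 in only 1 library each. It also had 11 retention entries over 7 distinct patterns, since an intron can be entered under more than 1 code. Eif5b had 9 retention entries over 8 patterns. Eif2ak3 (PERK), the kinase of the endoplasmic reticulum, had 3, 2 and 6 events in the morphine libraries, against 2, 2 and 2 in the saline libraries (log2 ratio 0.62, SE 0.38, exact permutation p = 0.4). Morphine replicate 6 was high for Eif2ak3, with 2 retained introns, and it was the one library without the last exon at 70904088. The heme-regulated kinase Eif2ak1 had 2 events in every library, and the RNA-activated kinase Eif2ak2 had 2 to 3 in morphine and 2 to 4 in saline. The last exon of Eif2ak1 in saline replicate 3 lay outside the gene.

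The eIF2B genes encode the exchange factor that reloads eIF2 with GTP. Eif2b5, which encodes the catalytic subunit, had 2 events in every library. Eif2b4 had 4, 5 and 4 events in the morphine libraries, against 9, 4 and 6 in the saline libraries, with an overlap at 4 (log2 ratio -0.44, SE 0.31, exact permutation p = 0.4). Saline replicate 1 held 4 of the retention events of Eif2b4 and lacked the 145-base alternative end that the other 5 libraries listed. The remaining subunit genes Eif2b1, Eif2b2 and Eif2b3 ranged from 2 to 3 events in morphine and from 2 to 4 in saline.

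The eIF3 genes, which encode the scaffold on the small ribosomal subunit, had the plainest catalogues. Their 14 listed genes summed to 29, 30 and 30 events in the morphine libraries and 33, 27 and 29 in the saline libraries, with a mean of 29.7 in each group. Without Eif3j2, whose entries lie on the other strand, the sums were 27 in each morphine library and 30, 27 and 29 in the saline libraries, and the groups still overlapped. Eif3b, Eif3c, Eif3f, Eif3g, Eif3h, Eif3i and Eif3k had 2 events in every library. The last exon of Eif3b in morphine replicate 4, at 140465315, lay outside the gene. Eif3m had 3, 2 and 2 events in the morphine libraries and 3, 2 and 3 in the saline libraries. Eif3j2 was listed with 2, 3 and 3 events in the morphine libraries, against 3, 0 and 0 in the saline libraries. All 3 sites listed for Eif3j2 lay on the strand opposite to the gene and at exon boundaries of the pseudogene Gm3650. On its own strand and inside it, Eif3j2 had 0 events in every library, so the numbers under its ID are not shown to be events of Eif3j2.

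Start codon scanning genes stayed between 2 and 4 events. Eif1, which guards the choice of start codon, had 2, 4 and 3 events in the morphine libraries, against 2, 4 and 4 in the saline libraries. Eif1a, whose product binds beside it on the small subunit, had 2 events in each morphine library, against 3, 2 and 3 in the saline libraries (log2 ratio -0.32, SE 0.15, exact permutation p = 0.4).

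Among factors of subunit joining and later steps, Eif5b, the GTPase that joins the ribosomal subunits, had 6, 4 and 5 events in the morphine libraries, against 12, 5 and 5 in the saline libraries. Saline replicate 1 alone was high for Eif5b, and 4 of its 12 events there were retention events. Eif5a, the hypusine-bearing factor of peptide bond formation, had 8, 10 and 7 events in the morphine libraries, against 7, 10 and 10 in the saline libraries, and 4 of its 5 first exon sites were in all 6 libraries. Eif6, which keeps the large subunit from joining too early, had 3 events in every library. Counting only events on its strand and inside it, Eif6 had 2 in saline replicate 1 and 3 in the others.

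**Figure D3:**
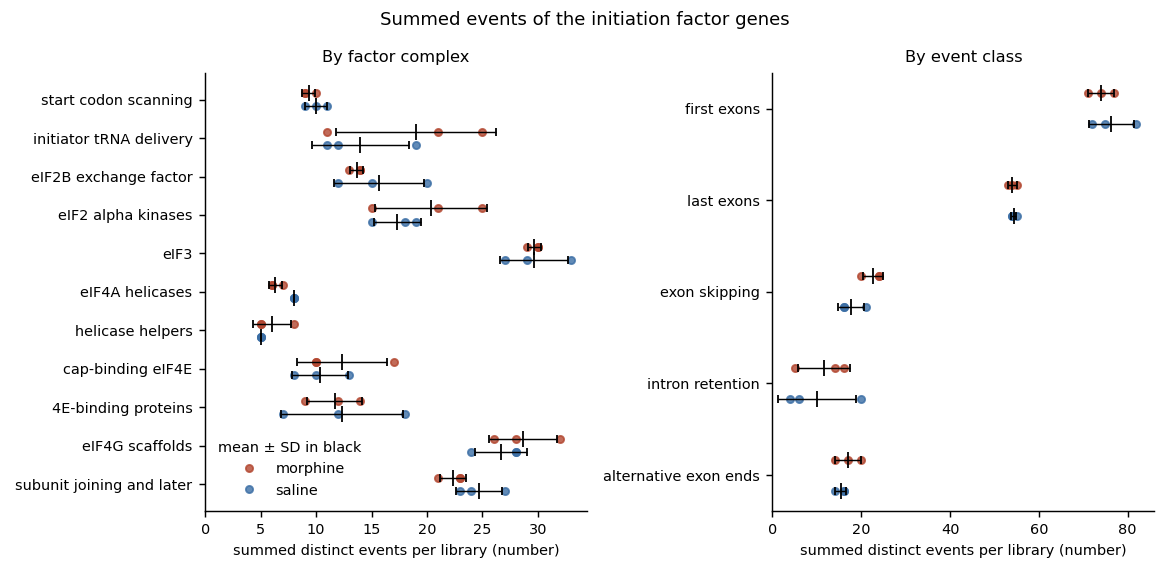
Summed distinct events per library (number) of the listed members, by factor complex (left) and by event class (right). Points are the libraries, morphine above saline in each row, with the mean and SD in black. The eIF4A row is the one where the groups do not overlap (7, 6 and 6 in morphine, 8 in each saline library). That row includes the Eif4a1 last exon, which the morphine libraries list under the Senp3 ID. Intron retention runs from 5 to 16 in the morphine libraries and from 4 to 20 in the saline libraries.

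Among the 11 factor complexes, eIF4A was the one whose summed events did not overlap between the groups. The 3 morphine libraries held 7, 6 and 6 events and the 3 saline libraries 8 each, and the 2 events of Eif4a1 made up the difference. The last exon among these 2 was listed under the Senp3 ID in all 3 morphine libraries, so the eIF4A sums depend on the gene ID assigned. Last exons were the steadiest class, with 55, 53 and 54 events in the morphine libraries and 54, 55 and 54 in the saline libraries. Each library that listed a member gave it at least 1 last exon, so this sum had little room to vary. Of 77 distinct last exon events, 41 were in all 6 libraries. First exons numbered 74, 71 and 77 in the morphine libraries, against 82, 72 and 75 in the saline libraries, and alternative exon ends 17, 20 and 14, against 16, 16 and 14. Intron retention numbered 5, 14 and 16 in the morphine libraries and 20, 6 and 4 in the saline libraries, so each group held a low and a high library. Over all genes, retention events numbered 7523, 6361 and 7018 in the morphine libraries and 7425, 5074 and 5010 in the saline libraries, and morphine replicate 4, the highest library there, was the lowest morphine library for the members.

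The members' catalogues were shared between libraries more than those of the series. Of the 329 member events, 112 were in all 6 libraries, or 34.0%, against 20.9% over all events, and 41.3% were in 1 library, against 50.7%. These shares are descriptions, since events of 1 gene are not independent. All 112 shared events had annotated boundaries, and 49.3% of the single-library ones did. Numbers constant over all 6 libraries were also more frequent, at 19 of the 50 tested members or 38% against 22.8% of all tested genes. Of these 19, 16 were at 2 events, the lowest number for a listed member. A constant number need not mean the same events. For 12 members, 1 first and 1 last exon site were listed in all 6 libraries, with no other event in any library. With events on the gene's strand and inside the gene alone, Eif2ak1, Eif3b, Eif5a2 and Eif6 were no longer constant. The median over members of the mean number of events was 2.33, against 2.67 over all genes tested, so the members also had slightly fewer events per gene.

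**Figure D4:**
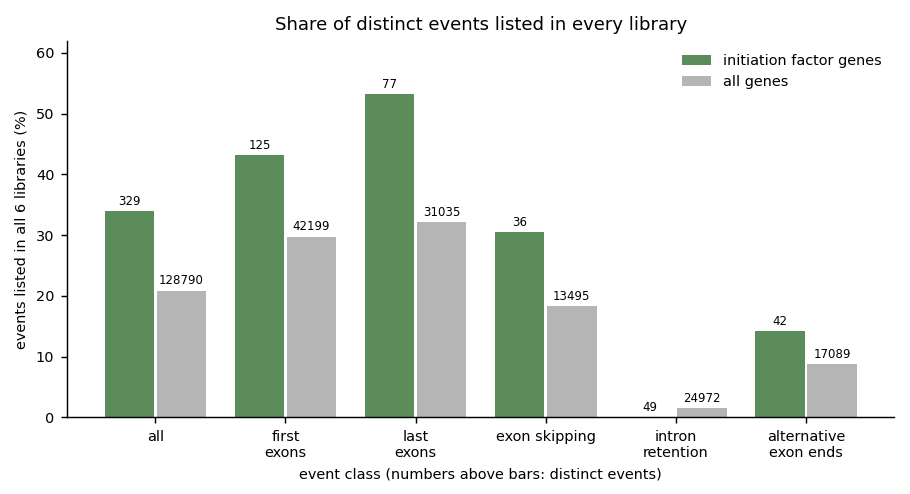
Share (%) of distinct events listed in all 6 libraries, for the initiation factor genes (green) and all genes (grey), over all events and by class. Numbers above the bars are distinct events. The members stand higher in every class except intron retention, where 0 of 49 member events was in all 6 libraries.

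Sharing followed the event class. Last exons of the members were in all 6 libraries for 53.2%, against 32.1% over all genes, and first exons for 43.2%, against 29.8%. For skipping the shares were 30.6% in the members and 18.3% over all genes, and for alternative exon ends 14.3% and 8.85%. Retention was at the other end, with 0 of 49 member events in all 6 libraries, against 1.51% over all genes, and no retention event of a member was in more than 3 libraries. Among the complexes, 64.1% of eIF3 events, 61.5% of start codon scanning events and 55% of eIF4G events were in all 6 libraries, against 16.3% for the eIF2 alpha kinases and 12.5% for the cap-binding genes.

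Events found in 1 library came from every library. They numbered 24, 16 and 18 in the morphine libraries and 38, 20 and 20 in the saline libraries, and 30 of the member genes held at least 1. Saline replicate 1 held the most, among them events of Eif2b4, Eif5b and Eif4enif1.

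A translation control list of 39 genes outside the members gave 3 non-overlapping cases among its 37 listed genes, beside 3.07% of all genes tested. The list holds mTOR pathway genes, elongation and termination factors and genes of the stress response. Tsc1, which restrains mTOR, had 14, 15 and 14 events in the morphine libraries, against 13, 6 and 8 in the saline libraries. Gspt1, a release factor for termination, had 4, 3 and 4 events in the morphine libraries, against 2, 2 and 2 in the saline libraries. Atf5, a transcription factor of the stress response downstream of eIF2 alpha, had 3 events in each morphine library, against 4 in each saline library. Each has an exact two-sided permutation p of 0.1, the smallest possible here.

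The other 34 listed genes of that list overlapped, and the median log2 ratio over the 37 was 0. Events summed over the list were 196, 230 and 191 in the morphine libraries, against 186, 181 and 181 in the saline libraries, so every morphine sum was higher. Mtor had 2 events in each morphine library, against 2, 5 and 2 in the saline libraries. Eef2k, the kinase that inhibits elongation, had 7, 14 and 15 events in the morphine libraries, against 5, 6 and 7 in the saline libraries, and the groups met at 7 (log2 ratio 0.88, exact permutation p = 0.2). Atf4, the transcription factor whose translation rises when eIF2 alpha is phosphorylated, had 2 events in each morphine library, against 2, 2 and 3 in the saline libraries, and Ppp1r15a, a subunit of the phosphatase acting on eIF2 alpha, had 2 in every library.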

How the data were processed

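Each deposited file lists the alternative transcript starts, ends and splice forms assembled for 1 library, with 20 type codes, an Ensembl gene ID, positions and a pattern of splice positions, per the file headers. The deposited column headed fpkm holds whole numbers from -24 to 0, and no expression level was taken from it. Which assembler, event caller and build were used, and how deeply libraries were read, is not given in the sources used here. Positions are read on GRCm38 because the boundaries of 63.4% of distinct events are those of GENCODE M21 exons. Symbols came from that annotation for 15815 gene IDs, and 124 had no match.

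Distinct events, told apart by gene ID, strand, type code and splice pattern, were counted per gene and library, without the 8 codes ending in OFF, which repeat an event for its partner form. An exon can count under several codes. Limma 3.58.1 (R 4.3.3, trend, Benjamini-Hochberg) was fitted over all 15040 genes that averaged 0.5 events or more, on log2(events + 0.5), and called genes at an adjusted p under 0.05. Event numbers are small whole numbers, and most of its calls were of genes with identical numbers within both groups, so non-overlap of groups and exact two-sided permutation tests (scipy 1.17.1) were used beside it. No p was computed over the members together.

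Values are given in every library for members whose groups did not overlap or that 1 group alone listed, for the member with the most events and the one with the largest log2 ratio in each complex, for members with skipping or retention in all 6 libraries, and for 10 genes chosen by name. Eif3 genes at 2 throughout, and other members named beside these, were named after their values were seen. The members, lists and tests were chosen with earlier results of these data known. Alternatives were other pseudocounts (0.1 and 1), filters (none, or a mean of 1), scaling to an equal total, other sets of event types, annotated events alone and leaving out each library. Keeping only events on the gene's strand and inside the gene and leaving out Eif3j2 were added after seeing the data.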

Additional observations from a re-analysis of the deposited data

How the results depend on the processing

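Groups did not overlap for 1 member, Eif4a1, and this held under the other filters and event-type settings apart from leaving out first and last exons, where Eif4a1 has no event and the number was 0. Scaling to an equal total per library gave 4 (Eif1a, Eif3j1, Eif4a1 and Eif4e3), with 5.44% of all genes. Leaving out 1 library at a time gave between 1 and 4, Eif4a1 always among them, beside 6.51% to 7.40% of all genes. The added ones were Eif2ak4 and Eif2d without morphine replicate 4, Eif2ak3 without morphine replicate 5, Eif3d, Eif3j2 and Eif4e3 without saline replicate 1, Eif1a, Eif2b4 and Eif3j1 without saline replicate 2, and Eif5 without saline replicate 3. Limma called 96 genes of the series, 42 without first and last exons, and between 250 and 285 with 1 library left out. The cause was not tested. Limma's call of Eif4a1 held under every setting in which the gene has an event.

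Without first and last exons the ratio of summed member events was 1.19, 0 events were in 1 group alone, and 13.4% of member events were in all 6 libraries. That share was 47.0% for first and last exons alone and 47.3% for annotated events alone. With events on the gene's strand and inside the gene alone, the ratio was 1.02 and the share 36.7%. Without Eif3j2 the ratio was 1.02. With 1 saline library left out, limma's adjusted p was under 0.05 for 5 members besides Eif4a1, 2.59e-06 for Eif3d and 0.023 for Eif3j2 without replicate 1, 3.39e-06 for Eif1a and Eif3j1 without replicate 2, and 0.000525 for Eif5 without replicate 3. For Eif3d, Eif1a, Eif3j1 and Eif5 the remaining numbers were identical within each group and differed by 1 event between the groups. The extra event of Eif3d, Eif1a and Eif3j1 was a different one in each saline library that had it. No paired analysis was possible because saline samples carry the numbers 1 to 3 and morphine samples 4 to 6. The unknown depth limits all numbers, since deeper libraries can list more events.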
